A study of Homo sapiens with 6 samples.

Results

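Heparan sulfate is a sulfated sugar chain that cells attach to core proteins such as the syndecans and glypicans, where it binds growth factors, chemokines and matrix proteins at the cell surface. The enzymes EXT1 and EXT2 work as a complex in the Golgi that lengthens the chain, EXTL2 and EXTL3 are related glycosyltransferases that act near its start, and the sulfotransferases NDST1 and HS2ST1 then place sulfate groups on it. In epithelial cells SDC1 is the most characteristic syndecan, and SDC4 gathers at focal adhesions. Here 10 genes of this system (EXT1, EXT2, EXTL2, EXTL3, NDST1, HS2ST1, SDC1, SDC2, SDC4 and GPC1) were taken by symbol from a count table of 40173 genes. All 10 were present, and 9 passed the filter on low counts, the exception being SDC2.

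The table came from RNA-Seq of A549, a human lung adenocarcinoma cell line, harvested a day after transfection with an siRNA against the long noncoding RNA FAM83H-AS1 (silenced) or with a scrambled negative control (control). Each group had 3 libraries, no other treatment is given in the labels, and the sources do not state which of the study's siRNAs against FAM83H-AS1 these cells received. Nothing in the labels says whether the 3 libraries came from separate cultures, so that p-values measure the spread between these libraries, which may be technical. Values are given in CPM, counts scaled to a common normalized library size, as mean ± SD (n = 3), and a log2 fold change above 0 stands for more of the RNA in the silenced cells.

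FAM83H-AS1 itself was at 14.5, 15.98 and 17.3 CPM in the control libraries and at 4.59, 4.44 and 5.57 CPM across the silenced libraries, 30.6% of the control level (log2 fold change -1.70, standard error 0.148, adjusted p = 7.99e-05 by edgeR). Library totals lay between 9738291 and 17742643 counts. Control replicate 3, the deepest library, stood apart in that the ribosomal RNA pseudogene RNA5-8SP6 took 3.22% of its counts, against 0.241% to 0.448% elsewhere. NDST1, SDC4 and GPC1 are also given without it. For genes of the other lists the number of failed alternatives is given instead. Among the epithelial markers fixed for the cell type, the keratins KRT7, KRT8 and KRT18 were abundant (1413 ± 119, 1863 ± 199 and 1316 ± 75.3 CPM in control cells). The others of that list were low in control cells, KRT19 at 0.944 ± 0.301, EPCAM at 3.86 ± 0.328 and CDH1 at 0.780 ± 0.0775 CPM. Of the markers fixed for A549, the NRF2 target NQO1 was at 191 ± 9.80 CPM in control cells. AKR1C1 and AKR1C2, fixed as A549 markers as well, were at 96.3 ± 30.1 and 19.2 ± 7.02 CPM in the control cells. AKR1B10, by contrast, was at 0.843 ± 0.0752 CPM in the control cells and ALDH1A1 had 0 counts in each control library, although both are known as abundant in A549. CDKN2A and MTAP, which are known to be deleted in A549 and were looked up after the other values had been seen, had 521 to 955 and 365 to 663 counts per library. CPS1, looked up with them, was at 486 ± 42.4 CPM in the control cells. The 6 libraries therefore go against their label at AKR1B10, ALDH1A1, CDKN2A and MTAP, but not at NQO1 or AKR1C1. The cells are called by the label only. Markers of leukocytes, endothelium, fibroblasts and muscle summed to 4.76 to 6.39 CPM in the 6 libraries, with CD3E at 0 throughout.

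Of the 9 tested genes, SDC1 fell and EXT1 rose after FAM83H-AS1 silencing, and the other 7 did not pass the test. This is a share of 22.2%, beside 17% of all 15250 tested genes that passed the same rule, 8.75% of them higher and 8.27% lower, so that the share of the 9 was near the background. No gene of the set changed by more than 2-fold, and the largest fold was 1.56, for SDC1. At the 2-fold rule 2.14% of all tested genes were called, and by DESeq2, as by edgeR, none of the 9 was. At an unadjusted p under 0.05, 3 of the 9 passed in edgeR, namely SDC1, EXT1 and GPC1, a share of 33.3% beside 32.1% of all tested genes. Reads may be shared where genes overlap or have copies: GENCODE 29 places exons of other genes over those of EXTL2, EXTL3 and NDST1 on the opposite strand and over HS2ST1 on the same strand, and names 1 pseudogene each for EXTL2 and SDC4. The median absolute log2 fold change of the 9 genes was 0.13, below the 0.20 of all tested genes.

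**Figure D1:**
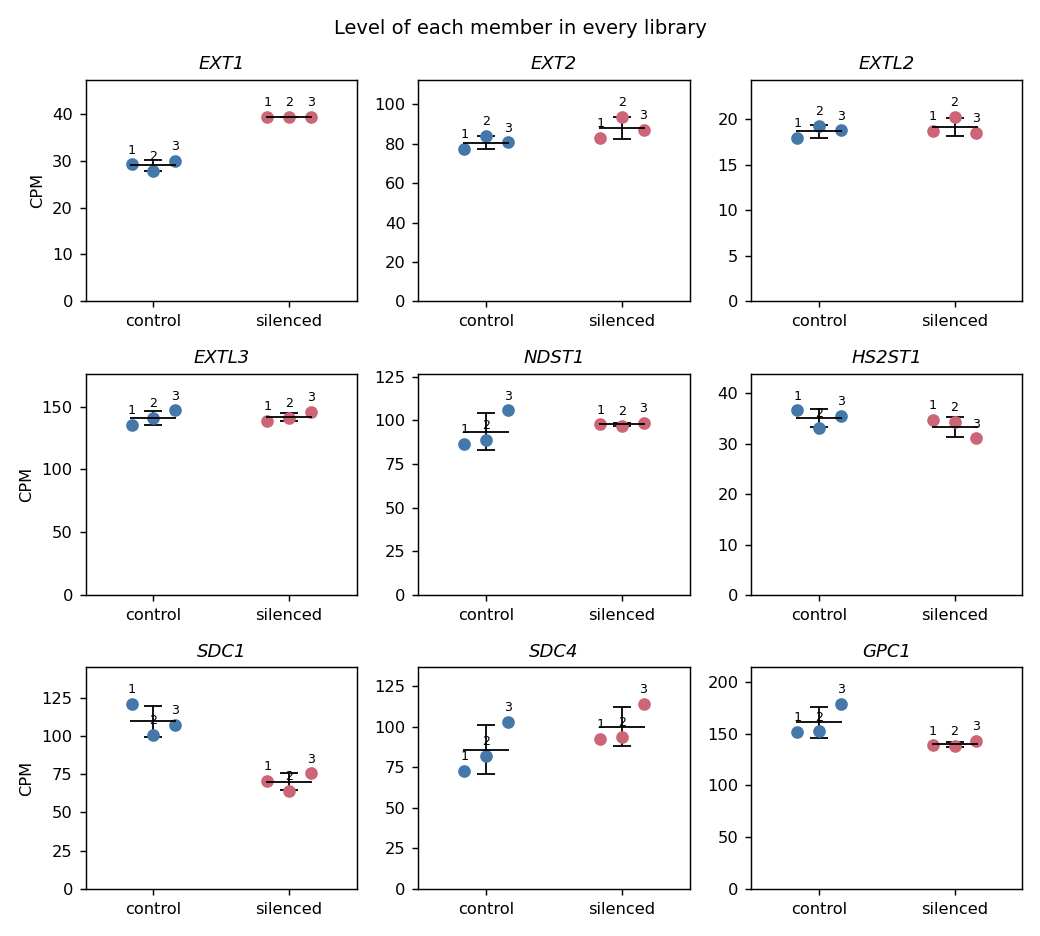
Level of each of the 9 tested genes in every library, in CPM on a linear axis from 0 (points, numbered by replicate), with the group mean (line) and SD (bar, n = 3). All silenced libraries lie above all control libraries for EXT1 and below them for SDC1 and GPC1, and the groups overlap for the other 6 genes. Of all tested genes, 36.6% had groups that did not overlap.

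Of the chain polymerases, EXT1 passed the test and EXT2 did not. EXT1, one of the pair of subunits of the elongating complex and a gene whose loss causes hereditary multiple exostoses, was at 29.2, 27.8 and 30.03 CPM in the control libraries and at 39.3, 39.4 and 39.4 CPM across the silenced libraries. Each silenced library lay above each control library, as for 19.1% of all tested genes. The silenced libraries, with 402, 426 and 530 counts, differed in CPM by less than counting noise alone would give. No weight is placed on that closeness. EXT1 rose by 0.44 on the log2 scale (standard error 0.0801, adjusted p = 0.00500 by edgeR), to 136% of the control level, and 1346 of the 15250 tested genes had a log2 fold change as high or higher. The increase passed the test under each of the 13 alternatives, with log2 fold changes between 0.41 and 0.47. EXT2, its partner, was at 77.3, 83.8 and 80.7 CPM in the control libraries and at 83.1, 93.8 and 87.2 CPM across the silenced libraries. The groups overlapped, since control replicate 2 was above silenced replicate 1, and the log2 fold change of 0.13 (95% interval -0.04 to 0.30) had an adjusted p of 0.287 by edgeR.

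The counts of EXT1 per count of EXT2, a ratio that does not depend on how libraries are scaled, came to 0.378, 0.332 and 0.372 for the control libraries and to 0.472, 0.420 and 0.452 across the silenced libraries. On the log2 scale this ratio was -1.47 ± 0.102 (SD, n = 3) in control cells and -1.16 ± 0.0854 (SD, n = 3) in silenced cells, without overlap. Both genes are on different chromosomes, EXT1 on the minus strand of chromosome 8 (117794490 to 118111853, GENCODE 29 on GRCh38) and EXT2 on the plus strand of chromosome 11 (44095549 to 44245429). EXT1 thus lies on the same chromosome as FAM83H-AS1, as do EXTL3 and SDC2.

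The EXT-like transferases differed little between the groups. EXTL3, which adds the first N-acetylglucosamine that commits a linker to heparan sulfate, was at 136, 141 and 147 CPM in the control libraries and at 139, 141 and 145 CPM across the silenced libraries. Its log2 fold change of 0.01 had a 95% interval from -0.15 to 0.16 and an adjusted p of 0.967 by edgeR, and its sign changed with the settings. EXTL2, a transferase that acts on the phosphorylated linker, was at 17.9, 19.3 and 18.7 CPM in the control libraries and at 18.7, 20.3 and 18.4 CPM across the silenced libraries (log2 fold change 0.03, 95% interval -0.18 to 0.25, adjusted p = 0.847 by edgeR). For both genes the groups overlapped.

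Neither sulfotransferase passed the test. NDST1, which replaces acetyl groups by sulfate on glucosamine, was at 86.4, 88.6 and 106 CPM in the control libraries and at 97.7, 97.1 and 98.5 CPM across the silenced libraries. Control replicate 3 was the highest of all 6 libraries, and the other control libraries were the lowest. The log2 fold change of NDST1 was 0.06 (95% interval -0.13 to 0.25, adjusted p = 0.675 by edgeR), and with 1 library left out it lay between 0.0055 (without control replicate 1) and 0.16 (without control replicate 3, adjusted p = 0.229). HS2ST1, which sulfates the uronic acids of the chain, was at 36.6, 33.2 and 35.6 CPM in the control libraries and at 34.7, 34.4 and 31.1 CPM across the silenced libraries, with overlapping groups. Its log2 fold change was -0.07 (95% interval -0.27 to 0.12, adjusted p = 0.592 by edgeR).

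**Figure D2:**
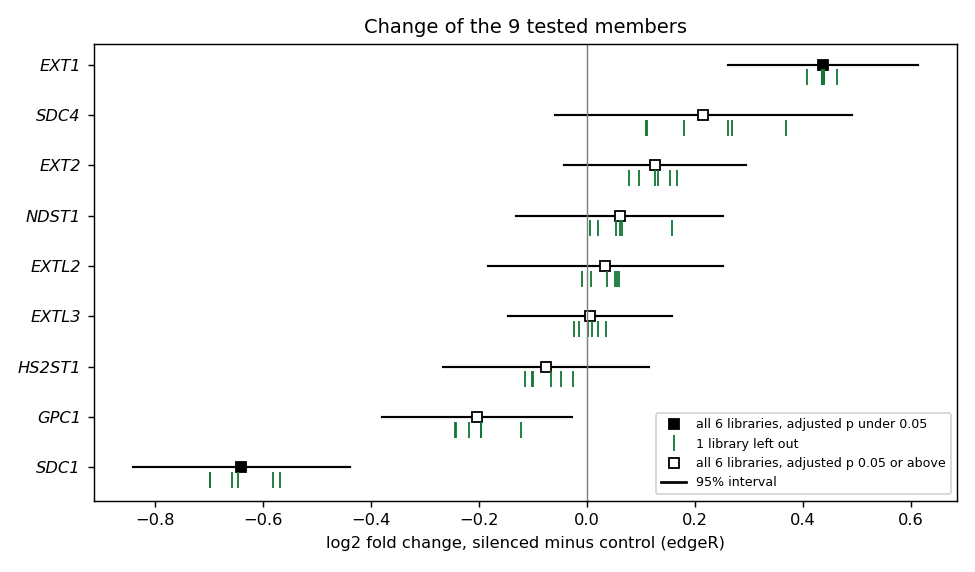
Log2 fold change of the 9 tested genes, silenced minus control, by edgeR with all 6 libraries (squares, filled at an adjusted p under 0.05) and its 95% interval (lines), and with each library left out in turn (ticks). EXT1 and SDC1 stay on their side of 0 in every case, and the highest tick of SDC4, at 0.37, is the fit without control replicate 3.

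Among the core proteins SDC1 showed the largest difference. SDC1 (CD138), an epithelial syndecan whose ectodomain can be shed from the cell surface, was at 121, 101 and 107 CPM in the control libraries and at 70.7, 64.3 and 75.4 CPM across the silenced libraries. The highest silenced library was below the lowest control library, as for 17.5% of all tested genes. SDC1 had fewer counts in the deepest silenced library (1015) than in the shallowest control library (1173). SDC1 fell by 0.64 on the log2 scale (standard error 0.0914, 95% interval -0.84 to -0.44, adjusted p = 0.00142 by edgeR), to 64.1% of the control level. A log2 fold change as low or lower was seen for 632 of the 15250 tested genes, and 8.11% of them had a larger absolute change. The decrease passed the test under each of the 13 alternatives, with log2 fold changes between -0.70 and -0.57. SDC1 is encoded on the minus strand of chromosome 2 (20200797 to 20225433, GENCODE 29 on GRCh38).

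Of the epithelial markers, the keratins KRT7 and KRT18 fell as SDC1 did. The summed level of the 6 markers fixed for epithelium was 4428 to 4727 CPM in the control libraries and 3533 to 3574 CPM across the silenced libraries, and of the 6 genes KRT7 (log2 fold change -0.57, adjusted p = 0.00116 by edgeR) and KRT18 (-0.43, adjusted p = 0.00266) fell, while KRT8 (-0.20), KRT19, EPCAM and CDH1 did not pass the test. KRT7, KRT8 and KRT18 make up nearly the whole sum. For CDH1 the log2 fold change was 0.82 (adjusted p = 0.112 by edgeR), each silenced library being above each control library, as for 19.1% of all tested genes. The defining adhesion markers were low in both groups, EPCAM at 3.86 ± 0.328 and CDH1 at 0.780 ± 0.0775 CPM in the control cells (SD, n = 3 each). The part of these markers in the level of SDC1 was not tested, and in bulk RNA fewer cells of a type and less RNA per cell cannot be told apart.

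SDC4, a widely expressed syndecan of focal adhesions, was higher on average after silencing and did not pass the test. It was at 72.9, 81.8 and 103 CPM in the control libraries and at 92.6, 93.4 and 114 CPM across the silenced libraries. Replicate 3 was the highest library in each group, and control replicate 3 exceeded the other silenced libraries, so that the groups overlapped. The log2 fold change was 0.22 (95% interval -0.06 to 0.49, adjusted p = 0.264 by edgeR). Without control replicate 3 it was 0.37 (adjusted p = 0.0483), and it was 0.11 both without control replicate 1 (adjusted p = 0.596) and without silenced replicate 3 (adjusted p = 0.613). SDC4 passed the test in 2 of the 13 alternatives. SDC2, the syndecan typical of mesenchymal cells, had 0 counts in all control libraries and 1, 0 and 1 counts across the silenced libraries. A count of 0 allows up to 3 counts, which is 0.177 to 0.309 CPM in these libraries, and no fold change is given for SDC2.

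GPC1, a glypican held in the membrane by a glycolipid anchor, was at 152, 152 and 178 CPM in the control libraries and at 139, 138 and 143 CPM across the silenced libraries. All silenced libraries lay below all control libraries, as was the case for 17.5% of all tested genes in that direction and for 36.6% in either, and control replicate 3 was the highest. The log2 fold change of -0.20 (95% interval -0.38 to -0.03) did not pass the test (adjusted p = 0.108 by edgeR), and it was -0.12 without control replicate 3. A two-sided exact permutation test gives p = 0.1 for any gene whose groups do not overlap, here SDC1, EXT1 and GPC1. That is the smallest p that 3 libraries against 3 allow, so the test adds nothing to the lack of overlap.

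Scaled to the merged exon length in GENCODE 29, the core proteins led the levels in control cells. GPC1 was at 40.3 ± 3.80, SDC1 at 33.0 ± 3.07 and SDC4 at 32.8 ± 5.87 CPM per kb (SD, n = 3 each). Each library of GPC1 was above each library of SDC1, while SDC1 and SDC4 overlapped. EXTL3 (21.5 ± 0.858) and EXT2 (20.9 ± 0.840) followed, overlapping each other and separate from SDC4, then NDST1 at 11.4 ± 1.29 CPM per kb. HS2ST1 (4.83 ± 0.243) and EXTL2 (4.62 ± 0.172) overlapped, and EXT1 was lowest of the tested genes at 3.51 ± 0.136 CPM per kb, below each library of EXTL2. In silenced cells SDC4 was first at 38.2 ± 4.59 CPM per kb, with GPC1 at 35.0 ± 0.622 overlapping it, and SDC1 at 21.1 ± 1.69 stood among EXT2 (22.9 ± 1.40) and EXTL3 (21.6 ± 0.509). EXT1 at 4.76 ± 0.00984 CPM per kb, an SD below counting noise, lay among EXTL2 (4.74 ± 0.246) and HS2ST1 (4.59 ± 0.275). Lengths of the transcripts in use in these cells are unknown, so that an order between genes rests on the annotated exons.

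**Figure D3:**
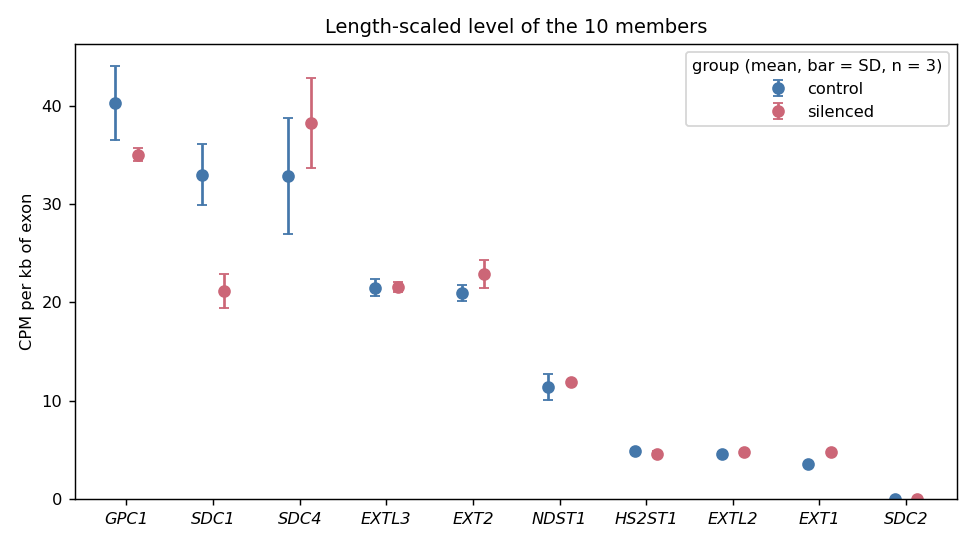
Length-scaled level of all 10 genes in CPM per kb of exon (linear axis from 0), as mean and SD of 3 libraries per group, in the order of the control means. SDC1 moves from the level of SDC4 in control cells to that of EXT2 and EXTL3 in silenced cells, and SDC2 is at 0 or close to it in both groups.

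The shares of SDC1 and SDC4 in the RNA counts of SDC1, SDC4 and GPC1 differed between the groups, as a description with no test. Other expressed core proteins, such as SDC3, are not in this sum. Because the shares add up to a whole, a fall of SDC1 by itself raises the share of SDC4. The level of SDC4 did not pass the test (adjusted p = 0.264 by edgeR). Of the summed length-scaled counts of SDC1, SDC4 and GPC1, SDC1 held 35.5%, 30.4% and 27.8% in the control libraries and 23.3%, 21.6% and 22.3% across the silenced libraries. SDC4 held 27.3%, 31.4% and 33.8% in the control libraries and 38.8%, 39.8% and 42.7% across the silenced libraries. Both shares separated the groups, with SDC1 at 31.2% ± 3.95 against 22.4% ± 0.863 and SDC4 at 30.8% ± 3.31 against 40.4% ± 2.03 (SD, n = 3 each). The share of GPC1 was 37.9% ± 0.654 in control and 37.2% ± 1.89 in silenced cells, and its groups overlapped. As a plain ratio of counts, without gene length, SDC1 exceeded SDC4 in all control libraries (1.65, 1.23 and 1.04) and was below it in all silenced libraries (0.764, 0.688 and 0.663). Scaled to length, SDC1 was already below SDC4 in control replicates 2 and 3, so the order of the pair depends on the scale.

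**Figure D4:**
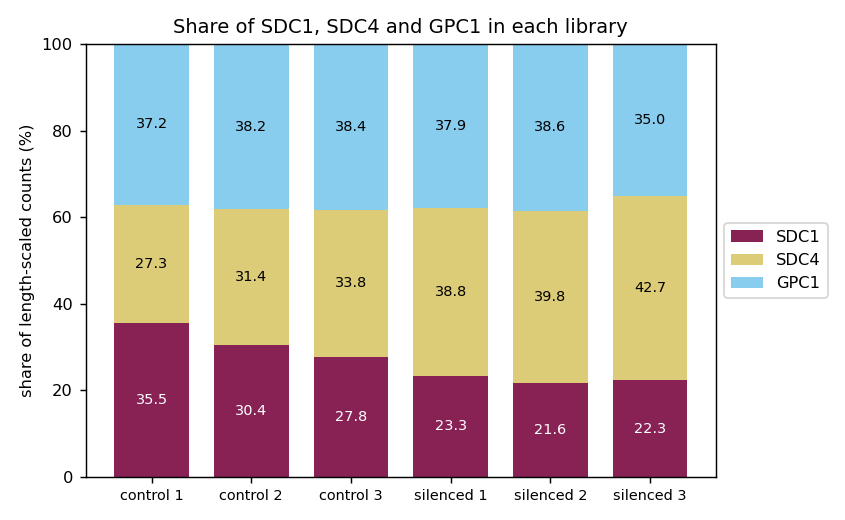
Share of SDC1, SDC4 and GPC1 in their summed length-scaled counts, in percent, as 1 stacked bar for each library. The share of SDC1 is 27.8% to 35.5% in the control libraries and 21.6% to 23.3% across the silenced libraries, and the share of SDC4 is larger in each silenced library than in each control library.

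A sequence word, CCAATAA, was searched on the transcript strand of the annotated 3′-UTRs, because mRNAs that hold it were already known to be lower in the silenced cells of this series. Of the 11550 tested mRNAs with an annotated 3′-UTR, 12.7% held it, and of the 9 tested genes here EXTL2 and HS2ST1 did. Their sites are shown 5′ to 3′ with the word in capitals and 11 bases on each side, from GENCODE 29.
EXTL2: tggctaatgttCCAATAAtgaggtctttg
HS2ST1: acagttatgttCCAATAAaactttattta
The EXTL2 site starts at base 1328 of the 1555 bases of the 3′-UTR of ENST00000370113.7, and the HS2ST1 site at base 2365 of 5302 in ENST00000370550.9. The median log2 fold change of the mRNAs with the word was -0.08, against 0.01 for those without it. As the word was chosen for this difference in the same data, the medians are no new result. Neither EXTL2 (0.03) nor HS2ST1 (-0.07) passed the test, and SDC1, which fell, has no match in its annotated 3′-UTRs. The part of the word in the level of any of these genes was not tested.

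Around the 10 genes, 115 further genes of 9 lists were examined, of which 83 passed the low-count filter. Of these 83, 16 changed, 9 higher and 7 lower, a share of 19.3% beside the 17% of all tested genes. Their median log2 fold change was 0.01, beside -0.00 for all tested genes, and none passed the 2-fold rule in edgeR, which 2.14% of all tested genes did. At an unadjusted p under 0.05, 32 of the 83 passed, or 38.6%, beside 32.1% of all tested genes, and by DESeq2 14 did, or 16.9%, beside 16.3%.

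Of 6 tested enzymes of the linkage tetrasaccharide, which joins the chain to the core protein, none passed in edgeR at an adjusted or unadjusted p under 0.05, nor in DESeq2, and the gene with the highest CPM, a scale without gene length, was the xylose kinase FAM20B at 64.1 ± 3.08 and 66.0 ± 1.53 CPM (SD, n = 3 each). Of 15 other chain enzymes only 5 passed the filter and 7 had 0 counts in all libraries, including HS3ST2, HS3ST4 and other 3-O-sulfotransferases. None of the 5 passed in edgeR or DESeq2. At an unadjusted p under 0.05 in edgeR 2 of the 5 did, or 40%, beside 32.1% of all tested genes. The highest CPM was that of the 6-O-sulfotransferase HS6ST1 at 46.9 ± 8.85 and 41.9 ± 2.87 CPM (SD, n = 3 each). SULF2, which trims 6-O-sulfates outside the cell, was at 72.4 ± 5.28 in control and 60.3 ± 4.52 CPM in silenced cells (SD, n = 3 each), with an adjusted p of 0.0605 by edgeR. In that list of sulfatases and heparanases, 2 genes were tested and none passed in edgeR or DESeq2. At an unadjusted p under 0.05 in edgeR 1 of the 2 did, beside the same 32.1% of all tested genes. Among 11 genes that supply activated sugars and sulfate 1 changed, or 9.09%, beside 17% of all tested genes. UGP2, which makes UDP-glucose, rose by 0.44 on the log2 scale (adjusted p = 0.00784 by edgeR). The sulfate donor synthase PAPSS2, with the highest CPM of that list, was at 173 ± 11.4 and 199 ± 12.99 CPM (SD, n = 3 each) without passing.

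The other core proteins did not pass the test either, 0 of 7 in edgeR and in DESeq2. At an unadjusted p under 0.05 in edgeR 2 of the 7 did, or 28.6%, beside 32.1% of all tested genes. The basement membrane proteoglycan AGRN had the highest CPM, at 437 ± 43.8 and 421 ± 54.8 CPM (SD, n = 3 each). SDC3, the remaining syndecan, was at 29.04 ± 1.77 and 25.96 ± 2.02 CPM (SD, n = 3 each, log2 fold change -0.17, adjusted p = 0.267 by edgeR).

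Among the lysosomal enzymes that break heparan sulfate down, the iduronate sulfatase IDS rose by 0.51 on the log2 scale (adjusted p = 0.00310 by edgeR) and the acetyltransferase HGSNAT fell by 0.39 (adjusted p = 0.0379). The change of IDS passed under each of the 13 alternatives, and that of HGSNAT failed in 7 of them. Of 15 tested genes of the chondroitin and dermatan sulfate branch, which shares the linker with heparan sulfate, 5 changed, 2 higher and 3 lower, a share of 33.3% beside the 17% of all tested genes, a difference that was not tested. The sulfotransferases CHST11 (0.44) and CHST3 (0.26) rose, and the polymerizing factor CHPF (-0.41) and the sulfotransferases CHST13 (-0.64) and CHST14 (-0.34) fell, with adjusted p from 0.0121 to 0.0396 by edgeR. CHST14 failed in 7 of the 13 alternatives, CHST13 and CHST3 in 5 each, and CHPF and CHST11 in 1 each. CHPF2, with the highest CPM of that list, was at 204 ± 14.1 and 220 ± 4.65 CPM (SD, n = 3 each) and did not pass.

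Of 11 tested partners and sheddases 3 changed, a share of 27.3% beside the 17% of all tested genes, a difference that was not tested. Syntenin (SDCBP), which binds the cytoplasmic tail of syndecans, rose by 0.31 (adjusted p = 0.0449 by edgeR) and the protease ADAM17, which can release syndecan ectodomains, by 0.38 (adjusted p = 0.0231). NOTUM, a secreted hydrolase first described as acting on glypicans, fell by 0.55 (adjusted p = 0.0177 by edgeR). SDCBP no longer passed with any 1 of the 6 libraries left out, and ADAM17 failed in 6 of the 13 alternatives and NOTUM in 1. EZR, a linker to actin with the highest CPM of the list, was at 329 ± 5.75 and 346 ± 13.4 CPM (SD, n = 3 each) and did not pass. Of 18 tested ligands of heparan sulfate 4 changed, a share of 22.2% beside the 17% of all tested genes, a difference that was not tested. BMP2 rose by 0.86 (adjusted p = 0.00183 by edgeR) and fibronectin (FN1) by 0.43 (adjusted p = 0.0174). FGFBP1, a carrier that frees FGF from the matrix, fell by 0.70 (adjusted p = 0.0115) and THBS1 by 0.44 (adjusted p = 0.0278). THBS1 failed in 4 of the 13 alternatives and FN1 in 1. FGF2, the classical growth factor ligand, was at 38.5 ± 1.14 and 38.7 ± 1.76 CPM (SD, n = 3 each), and WNT7B, with the highest CPM, at 129 ± 9.68 and 123 ± 8.50 CPM (SD, n = 3 each), and neither passed.

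**Figure D5:**
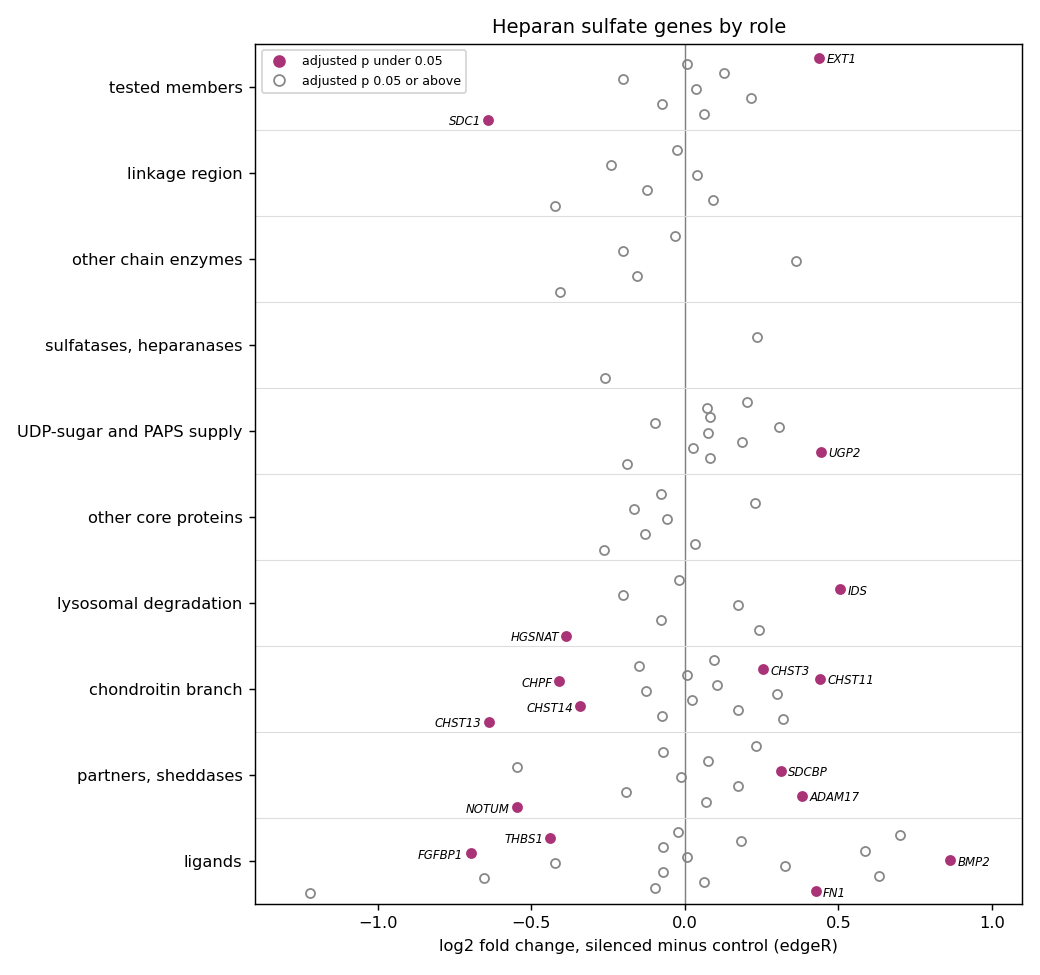
Log2 fold change (silenced minus control, edgeR) of the tested genes of heparan sulfate biology, less 1 gene not reported here, arranged by role, with genes at an adjusted p under 0.05 filled and named. No gene of the linkage region, the other chain enzymes, the sulfatases and heparanases or the other core proteins is filled, and the filled genes of the remaining lists lie on both sides of 0 except for UGP2.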

How the data were processed

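RNA-Seq was performed on 3 control and 3 silenced libraries of cells labelled A549. Per the labels, libraries were made from total RNA with an Ion Proton kit, and the submitters' processing notes name GRCh37. The authors counted mapped reads per gene with MapSplice. The deposited values are these raw counts, not normalized, for 40173 gene symbols, and library totals ranged from 9738291 to 17742643. The annotation, the strand setting and the handling of reads with several matches are not given in the sources used here.

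Groups were compared with the quasi-likelihood F test of edgeR 4.0.16 in R 4.3.3, after filterByExpr and TMM, and all 15250 genes kept entered the Benjamini-Hochberg adjustment. A gene was counted as changed at an adjusted p under 0.05, and the fold change of 2 of the study's methods was applied as a second rule. The standard error was taken as |log2 fold change| over √F, and 95% intervals use the degrees of freedom of the fit. CPM are counts scaled to a common TMM-normalized library size. Exon lengths, positions and 3′-UTRs came from GENCODE 29 on GRCh38, joined by symbol, and were not used in any test. PXYLP1 and CXCL8 were found under older symbols.

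The 10 genes, the other lists and the tests were chosen with earlier results of these data known. All 10 genes are named, and from each other list the most abundant gene and every changed gene (at most 8). A gene that this rule names is not reported here and is kept in the counts over lists. The alternatives were DESeq2 1.42.0, RLE size factors, library size only, 2 other low-count filters, thinned counts, an adjusted p under 0.01, the replicate number as a block, and each library left out in turn. In counts simulated for this comparison over 15097 genes, 100 of 100 genes changed by 2-fold and 70 of 100 changed by 1.5-fold were recovered, with 4 false calls. The simulation gave all genes the common dispersion of 0.0108, changed only genes above a minimum level and had no outlying library. Its rates therefore check the code and do not carry over to the real libraries.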

Additional observations from a re-analysis of the deposited data

How the results depend on the processing

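SDC1 and EXT1 kept their direction and passed the test in each of the 13 other fits, and so did the decrease of FAM83H-AS1 (log2 fold change -1.82 to -1.64). The count of higher genes among the 9 was 1, or 2 when SDC4 passed, which was so without control replicate 3 and with the replicate number as a block. The sign of EXTL3 turned with all genes of at least 1 count (-0.0032), in thinned counts (-0.00064), and without control replicate 1 or silenced replicate 3, and that of EXTL2 without silenced replicate 2. With 1 library left out, EXTL3 ranged from -0.023 to 0.035 and EXTL2 from -0.0092 to 0.060, far from the threshold. The genes of the other 9 lists depended more on the settings: 16 changed in the fit reported, 4 at an adjusted p under 0.01 (4 higher, 0 lower), and with all genes of at least 1 count the lower genes were 11 in place of 7. With 1 library left out, 7 to 13 changed, 4 to 8 higher and 3 to 6 lower, and the fewest were found without silenced replicate 1. Of the 16 changed genes, HGSNAT, CHST13, CHST14, SDCBP, ADAM17 and THBS1 lost the test without control replicate 3. These genes also lost it without silenced replicate 1, as did CHST3, CHST11 and FN1, so the losses are not particular to control replicate 3. With 5 libraries the fits rest on fewer samples. Over SDC1, EXT1, the other 7 tested genes, FAM83H-AS1 and the 16 changed genes, 287 of 338 refitted values kept their sign and side of the threshold, 44 lost the test, 2 gained it and 5 turned. The cause was not tested for the remaining shifts.

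The labels do not say whether same-numbered control and silenced libraries shared more than a number, and the fit reported did not pair them. Their deviations from the group means correlated across genes at 0.124, 0.149 and 0.0670 for replicates 1, 2 and 3, and each silenced library correlated best with the control library of its number. With the replicate number as a block, 25 genes of the other lists changed, 15 higher, and the adjusted p of SDC4 was 0.0424. Depth limits the statements on SDC2, which had at most 1 count in a library.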
